A study of Mus musculus with 25 samples.

Results

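Synaptic vesicle and SNARE genes were the 76 genes of the array whose symbols belong to the families of vesicle SNAREs, syntaxins, SNAP-25-like proteins, syntaxin-binding proteins, complexins, synaptotagmins, Doc2 proteins, synapsins, vesicle membrane proteins and active zone priming factors. They were chosen by symbol from the array's annotation, 76 of 18193 genes with a probe set of their own, and 176 of the 45037 probe sets tested. Of the 76 genes, 24 had 1 probe set and 52 had several, and each gene was described by its leading probe set, the one with the highest mean log2 signal over all mice.

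The mice were female Balb c/J, an inbred strain, and each gave 1 Affymetrix Mouse 430_2.0 array of microdissected CA1, the region through which the hippocampus sends its output. The 11 handled mice had spent 15 min of every morning away from the dam through postnatal day 14, starting on day 1. The 14 non-handled mice had been raised under standard conditions. All mice were tested for behavior at 8 weeks of age and dissected 2 weeks later. RNA came from RNA/DNA columns in 7 handled and 10 non-handled mice and from Trizol, a phenol reagent, in 4 handled and 4 non-handled mice, and all RNA was amplified in 2 rounds before labeling. Handling was given to whole litters and mice of a group shared litters. The litter of each mouse is not given, so every p-value treats mice as independent and may be too small.

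Neurons release transmitter when a synaptic vesicle fuses with the membrane of the terminal. The vesicle protein VAMP2 coils together with syntaxin 1A and SNAP-25 of the target membrane into a SNARE complex, Munc13 proteins prepare that step, complexins and synaptotagmin 1 make it follow calcium, and NSF takes the used complexes apart. Most other syntaxins, VAMPs and synaptotagmins serve fusion at the Golgi apparatus, endosomes or the plasma membrane of many cell types. CA1 pyramidal cells are rich in this machinery, although the proteins of a terminal are made in the cell body, so RNA from CA1 comes mostly from local cells and little from the CA3 axons that end there.

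The files hold 1 MAS 5.0 signal for each probe set and mouse, and the number of mice limits the precision of each mean. Mean signal per array ran from 737 to 910, the correlation between any 2 arrays in log2 signal from 0.806 to 0.919, and no pair of arrays was identical. Markers of CA1 pyramidal cells (5 genes) had a summed log2 signal of 13.94 to 15.23, those of CA3 (5 genes) 10.35 to 11.32, and those of the dentate gyrus (5 genes) 7.86 to 9.13. In the sum, CA1 markers were therefore brighter than those of either neighbor in every mouse, although probe sets differ in brightness for reasons other than RNA amount. In bulk tissue, fewer cells of a type and less RNA per cell cannot be told apart, and this holds for every difference given here.

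Most of the central fusion genes were among the brightest of the array. Of the 76 genes, 56 lay in the upper 50% of leading probe sets by mean log2 signal, 21 in the upper 10%, and 5 in the lowest 25%. Snap25, the target SNARE of synapses, had a mean log2 signal of 14.66 ± 0.18 (SD, n = 25) and lay at percentile 99.8. Syt1, the calcium sensor of fast release, had 14.13 ± 0.11 and percentile 99.3, and Cplx1, a complexin, 14.29 ± 0.36 and percentile 99.5. The other 7 of the 10 brightest were Snap47, Nsf, Syt11, Snap91, Sv2b, Syn2 and Stx7, between percentiles 97 and 99.5. Vamp2, Cplx2 and Stx1a lay at percentiles 93.7, 93 and 91.3, and Vamp1 and Unc13a (Munc13-1) at 69.8 and 60. The dimmest was Stx19, a syntaxin without a membrane anchor, at 4.03 ± 1.73 and percentile 6.9. These percentiles place a probe set on this array and do not order the RNA of different genes.

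Handling was tested with extraction method as a second term in limma, on log2 signal, and a gene passed when its p, adjusted by Benjamini-Hochberg over all probe sets, was under 0.05. In handled mice 6 genes were higher, namely Stxbp3, Stxbp2, Pclo, Sv2a, Stx16 and Syt14, and 2 were lower, namely Syngr3 and Stx19, while 68 did not pass. The share higher was 7.89% against 4.47% of all leading probe sets, and the share lower was 2.63% against 9.7%. Before adjustment 26 of the 76 had p under 0.05 (34.2%, against 31.6% of all). With a constant prior variance in place of a trended one only Stxbp3 and Pclo passed (2.5% of all were higher and 8.35% lower), and with no extraction term only Stxbp3 (1.08% higher and 5.07% lower). The median difference was -0.02 over the 76 genes and -0.12 over all leading probe sets.

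By role, 2 of 5 syntaxin-binding proteins were higher and all 5 had positive differences (median 0.35 on the log2 scale), 4 of 5 with quantile normalization. Of 14 syntaxins 1 was higher and 1 lower, and of 8 vesicle membrane proteins 1 was higher and 1 lower. Of 10 priming and active zone genes and of 19 synaptotagmins and Doc2 genes 1 each was higher. None of 7 vesicle SNAREs (0 also at an unadjusted p under 0.05), 4 SNAP family genes (1), 5 complexins and Nsf (1) or 4 synapsin and clathrin assembly genes (1) passed in limma.

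**Figure D1:**
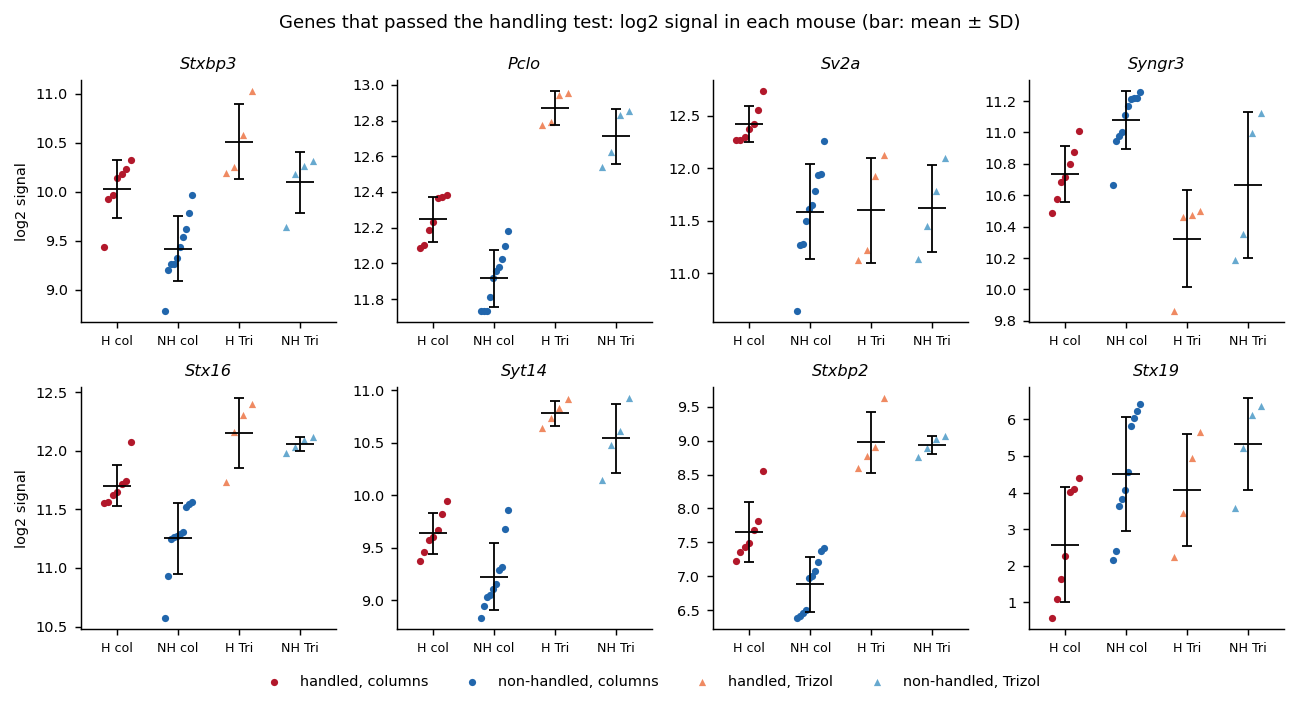
Log2 signal of the 8 genes that passed the handling test, 1 point per mouse, in handled (H) and non-handled (NH) mice with RNA from columns (col, circles) or Trizol (Tri, triangles); bars are mean ± SD. Among column mice every handled Sv2a value lies above every non-handled one (12.27 to 12.73 against 10.64 to 12.26), and among Trizol mice the 2 groups overlap for all 8 genes.

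Both syntaxin-binding proteins that passed were higher in handled mice. Stxbp3 (Munc18-3) partners syntaxin 4 and is known for the insertion of glucose transporters into the plasma membrane. Its log2 signal in column mice ran from 9.44 to 10.33 with a median of 10.14 in 7 handled and from 8.78 to 9.97 with a median of 9.38 in 10 non-handled mice. In Trizol mice it was 10.19, 10.25, 10.58 and 11.03 in handled and 9.64, 10.18, 10.26 and 10.32 in non-handled mice. The handled values were shifted up under both methods, and the groups overlapped under both. The difference was 0.55 (SE 0.12), a fold of 1.46, with an adjusted p of 0.0038 in limma.

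Stxbp2 (Munc18-2) serves granule release in immune and secretory cells. In column mice it ran from 7.22 to 8.55 with a median of 7.49 in handled and from 6.38 to 7.41 with a median of 6.98 in non-handled mice. In Trizol mice it was 8.60, 8.77, 8.91 and 9.63 in handled and 8.76, 8.89, 9.03 and 9.06 in non-handled mice. Column groups overlapped slightly, and Trizol groups lay over each other. The difference was 0.53 (SE 0.17) with an adjusted p of 0.0420 in limma, 0.77 within columns and 0.04 within Trizol. It no longer passed when any 1 of H108, H109, H110, H116, H117, H123, H126, NH155, NH157, NH162, NH165 or NH170 was left out, with an adjusted p in limma of up to 0.0915. Its other probe sets differed by 0.11 and -0.13.

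Pclo encodes piccolo, a very large scaffold of the active zone. Its log2 signal in column mice ran from 12.09 to 12.38 (median 12.23) in handled and from 11.73 to 12.18 (median 11.94) in non-handled mice. In Trizol mice it was 12.78, 12.79, 12.95 and 12.96 in handled and 12.54, 12.63, 12.83 and 12.85 in non-handled mice. Handled mice tended to the upper end under both methods, with overlap under both. The difference was 0.27 (SE 0.07), a fold of 1.21, with an adjusted p of 0.0097 in limma, the smallest SE of the 6 genes that were higher. The other 2 probe sets of Pclo gave 0.10 and -0.06.

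Sv2a encodes a glycoprotein of all synaptic vesicles and is the binding site of the antiepileptic drug levetiracetam. In column mice it ran from 12.27 to 12.73 (median 12.37) in handled and from 10.64 to 12.26 (median 11.63) in non-handled mice, with no overlap. In Trizol mice it was 11.12, 11.22, 11.93 and 12.13 in handled and 11.14, 11.45, 11.78 and 12.10 in non-handled mice. The Trizol groups covered the same range, and the lowest column mouse was NH162. That mouse also had the highest log2 ratio of the 3' to the 5' control probe set of Actb, at 3.24. The other mice had 1.54 to 2.12. Without NH162 the handling difference of Sv2a was 0.48 (adjusted p = 0.0203 in limma). The difference over all mice was 0.55 (SE 0.15), a fold of 1.47, with an adjusted p of 0.0179 in limma, made of 0.83 within columns and -0.02 within Trizol.

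Stx16 is a syntaxin of the trans-Golgi network. It ran in column mice from 11.55 to 12.07 (median 11.65) in handled and from 10.57 to 11.57 (median 11.28) in non-handled mice, and in Trizol mice it was 11.73, 12.16, 12.31 and 12.40 in handled and 11.98, 12.04, 12.09 and 12.12 in non-handled mice. The column groups met only at their edges and the Trizol groups did not separate. The difference was 0.34 (SE 0.10), a fold of 1.26, with an adjusted p of 0.0247 in limma. Syt14 is a synaptotagmin that does not bind calcium. It ran in column mice from 9.38 to 9.95 (median 9.61) in handled and from 8.83 to 9.86 (median 9.13) in non-handled mice, and in Trizol mice it was 10.64, 10.74, 10.83 and 10.92 in handled and 10.14, 10.48, 10.62 and 10.93 in non-handled mice. Its groups overlapped under both methods, with most handled values in the upper part. The difference was 0.35 (SE 0.11), a fold of 1.28, with an adjusted p of 0.0262 in limma. Without H109, adjusted p in limma was 0.0608 for Stx16 and 0.0547 for Syt14, and without H117 it was 0.0552 for Syt14.

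Of the genes lower in handled mice, Syngr3 was a bright vesicle gene and Stx19 was near the floor of the array. Syngr3 encodes synaptogyrin 3, a membrane protein of synaptic vesicles. In column mice it ran from 10.49 to 11.01 (median 10.72) in handled and from 10.67 to 11.26 (median 11.14) in non-handled mice, and in Trizol mice it was 9.86, 10.46, 10.47 and 10.50 in handled and 10.19, 10.36, 10.996 and 11.12 in non-handled mice. The handled groups sat lower under both methods, with overlap. The difference was -0.34 (SE 0.10) with an adjusted p of 0.0218 in limma and -0.34 within each method, while its second probe set gave 0.07. Stx19 ran from 0.57 to 5.66 over the 11 handled and from 2.17 to 6.41 over the 14 non-handled mice, which overlap over most of their range. Its difference was -1.71 (SE 0.57), with an adjusted p of 0.0465 in limma. It passed in 10 of the 25 fits that each left out 1 mouse, and no longer passed in those that left out H108, H109, H113, H117, H118, H131, NH142, NH144, NH146, NH147, NH156, NH162, NH163, NH165 or NH166 (adjusted p in limma up to 0.102).

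Promoter sequence was read for the genes that passed, to show what stands before the start of genes that were higher and of one that was lower. RefSeq windows of 300 bases (250 before to 50 after the start, build GRCm38.p6) were at hand for 57 of the 76 genes. Below are the parts that lie before the gene start for Stxbp3 (chr3:108840503-108840752, minus strand), Pclo (chr5:14514668-14514905, plus strand) and Sv2a (chr3:96180977-96181226, plus strand), which were higher, and for Stx19 (chr16:62814426-62814675, plus strand), which was lower. Capitals mark GC boxes (GGGCGG, or CCGCCC on the other strand) and, in Stxbp3, a cAMP response element (TGACGTCA).
Stxbp3: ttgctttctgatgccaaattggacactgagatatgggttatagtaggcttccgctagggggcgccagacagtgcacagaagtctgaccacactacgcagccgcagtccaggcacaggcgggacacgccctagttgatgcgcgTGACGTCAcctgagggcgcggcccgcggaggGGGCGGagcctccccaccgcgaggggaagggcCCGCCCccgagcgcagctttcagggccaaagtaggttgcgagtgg
Pclo: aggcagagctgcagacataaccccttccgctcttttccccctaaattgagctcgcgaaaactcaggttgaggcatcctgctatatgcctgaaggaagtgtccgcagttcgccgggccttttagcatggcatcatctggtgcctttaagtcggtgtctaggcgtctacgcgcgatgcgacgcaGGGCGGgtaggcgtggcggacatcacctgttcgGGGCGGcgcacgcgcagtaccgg
Sv2a: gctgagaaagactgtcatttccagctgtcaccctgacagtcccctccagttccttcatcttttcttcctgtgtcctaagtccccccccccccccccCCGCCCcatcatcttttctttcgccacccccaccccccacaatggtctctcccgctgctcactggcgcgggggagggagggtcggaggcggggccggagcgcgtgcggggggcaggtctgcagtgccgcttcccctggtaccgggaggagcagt
Stx19: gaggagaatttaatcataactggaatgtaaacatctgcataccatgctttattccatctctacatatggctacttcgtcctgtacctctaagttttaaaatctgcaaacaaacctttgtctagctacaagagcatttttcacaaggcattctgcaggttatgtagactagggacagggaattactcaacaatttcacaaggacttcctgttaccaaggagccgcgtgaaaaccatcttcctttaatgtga
Searched on both strands of the whole windows, a GC box stood in 71.9% of the 57 windows (41) and in 35.9% of all 27025 windows in the table. It was present in Stxbp3, Pclo, Sv2a, Stx16 and Syt14, and in neither Stxbp2 nor Stx19. The cAMP response element stood in 2 of the 57 windows, Stxbp3 and Syn1 (3.51%, against 1.85% of all). The EGR element GCGNGGGCG, which can overlap a GC box, stood in 14.0% against 5.53%, and the left part of the RE1 silencer element, TTCAGCACC, in Syn1 and Unc13a (3.51% against 0.37%). The median GC content was 64% in these 57 windows and 52.7% in all. The 27025 windows were not limited to genes of the array or to genes as bright as these. These matches describe letters in a window and say nothing of a factor bound there.

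Over all probe sets, no gene of the core synaptic SNARE machinery passed the handling test. When testing was limited to the brighter 50% of probe sets, Snap25 (adjusted p = 0.03004 in limma) and Cplx1 (adjusted p = 0.0281 in limma) passed, as did Rims1, and Cplx1 also passed with array weights (adjusted p = 0.0433 in limma). That filter gave 8 genes higher and 2 lower (8.23% and 12.2% of the leading probe sets it kept). Snap25 was higher by 0.19 (SE 0.07, 95% interval 0.04 to 0.34, adjusted p = 0.0818 in limma), with log2 signals of 14.60 to 14.89 against 14.15 to 14.75 in column mice. Those ranges overlapped, as did every pair of ranges in this paragraph. Cplx1, which clamps and triggers fusion, was lower by 0.27 (SE 0.09, adjusted p = 0.0506 in limma), with 13.98 to 14.48 in handled and 14.37 to 15.03 in non-handled column mice. It passed when any 1 of H123, H126, NH142, NH144, NH146 or NH163 was left out. Rims1, an organizer of the active zone, was higher by 0.23 (SE 0.08, adjusted p = 0.0548 in limma), with 12.15 to 12.75 against 11.85 to 12.59 in column mice. It passed when any 1 of H113, H116, H130, NH146, NH157 or NH170 was left out.

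Of the other core genes, all but Stx1a gave intervals that held 0. For Vamp2 the difference was -0.03 (95% interval -0.23 to 0.16), for Syt1 -0.02 (-0.15 to 0.11), for Nsf -0.02 (-0.20 to 0.16) and for Unc13a -0.02 (-0.31 to 0.26). For Cplx2 it was -0.09 (-0.29 to 0.12), for Vamp1 -0.13 (-0.33 to 0.07) and for Stx1a -0.21 (-0.42 to -0.00, all below 0, with an unadjusted p of 0.0459 in limma), with adjusted p in limma between 0.171 (Stx1a) and 0.934 (Unc13a). Differences of the size seen for Stxbp3 or Sv2a lie outside each of these 7 intervals. With gene means over all probe sets of a gene, Vamp1 passed the handling test. Of the other bright genes, Snap91, a clathrin assembly protein, differed by 0.18 (adjusted p = 0.0917 in limma), Snap47 by 0.08, Sv2b by 0.07, Syt11 by 0.05, Syn2 by 0.02 and Stx7 by -0.03.

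Bsn encodes bassoon, the partner scaffold of piccolo, and its difference of -0.62 (SE 0.25) did not pass (adjusted p = 0.0988 in limma). Its log2 signal ran from 10.98 to 11.45 in handled and from 10.65 to 13.78 in non-handled column mice. The upper end rested on NH163 (13.78) and NH166 (13.75), and the next mouse, NH156, had 12.12. A second, dim probe set of Bsn was lower by 1.51 (adjusted p = 0.0069 in limma).

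**Figure D2:**
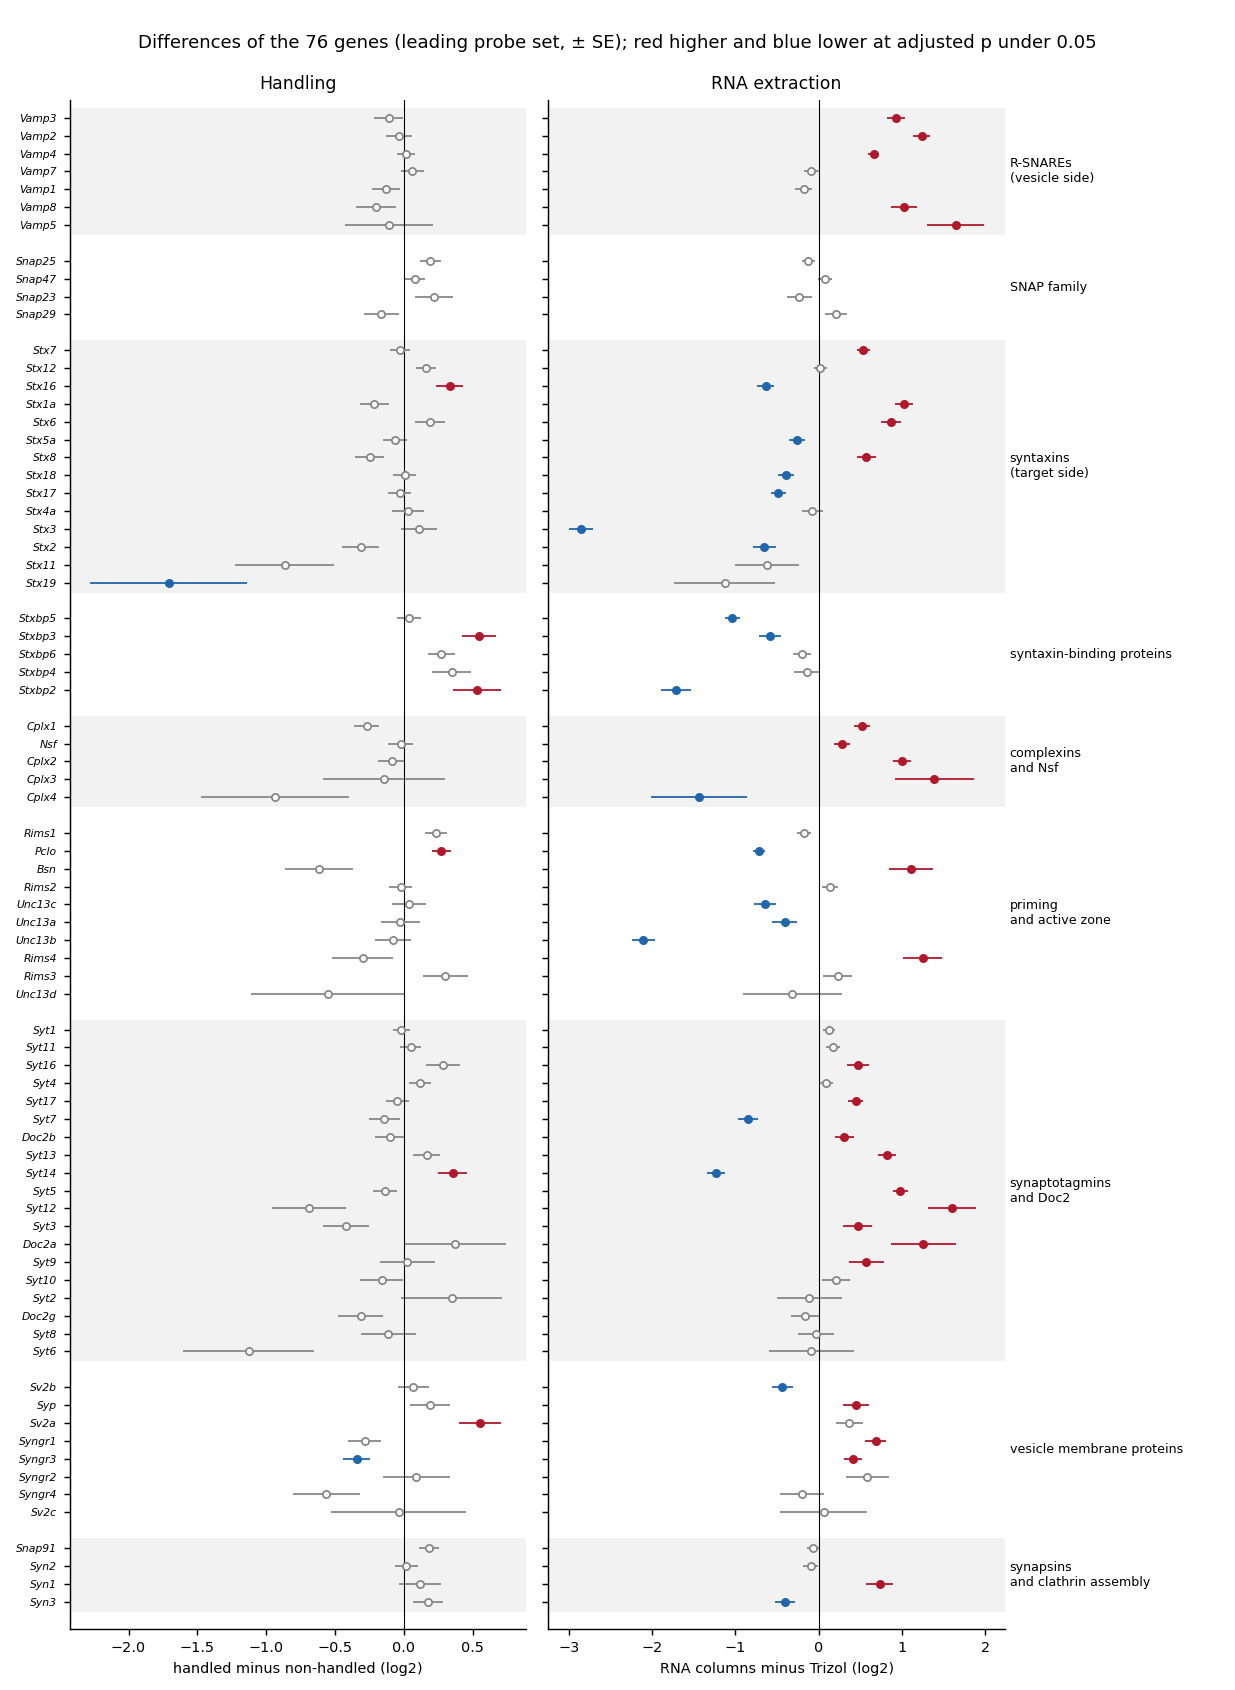
Log2 differences ± SE of the leading probe set of each of the 76 genes, grouped by role, for handling (left, handled minus non-handled) and RNA extraction (right, columns minus Trizol); filled points passed the test. The handling differences cluster around 0 with 8 filled points, while 46 points are filled for extraction.

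Brightness moved with the handling difference on the whole array. In the lower 50% of leading probe sets the median handling difference was -0.39 over all and -0.23 over the 20 vesicle and SNARE genes there. From percentile 50 to 75 it was -0.04 and 0.03 (17 genes), from 75 to 90 it was 0.03 and -0.01 (18 genes), and from 90 to 100 it was 0.06 and 0.05 (21 genes). In the top range 3 of 21 genes passed (14.3%), against 20.5% of all. Since 56 of the 76 genes lay in the upper 50%, brightness differed between them and all leading probe sets, and its part in the shares above was not tested.

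Equalizing the arrays shifted the median handling difference over all leading probe sets from -0.12 to -0.01, both with quantile normalization and with arrays scaled to 1 mean and variance. With quantile normalization 5 of the 76 genes were higher and 1 lower (2.93% and 5.07% of all leading probe sets), and Stx16 (0.26, adjusted p = 0.0852 in limma) and Stx19 (-1.20, adjusted p = 0.175 in limma) no longer passed. With arrays scaled, 4 were higher and 3 lower (3.64% and 5.91% of all). Pclo, Sv2a, Stx16 and Stx19 no longer passed then, and Cplx1 (-0.55), Syt1 (-0.29) and Stxbp4 (0.52) did. The sign of the difference turned under quantile normalization for 12 of the 76 genes, none of them among the 8 that passed.

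**Figure D3:**
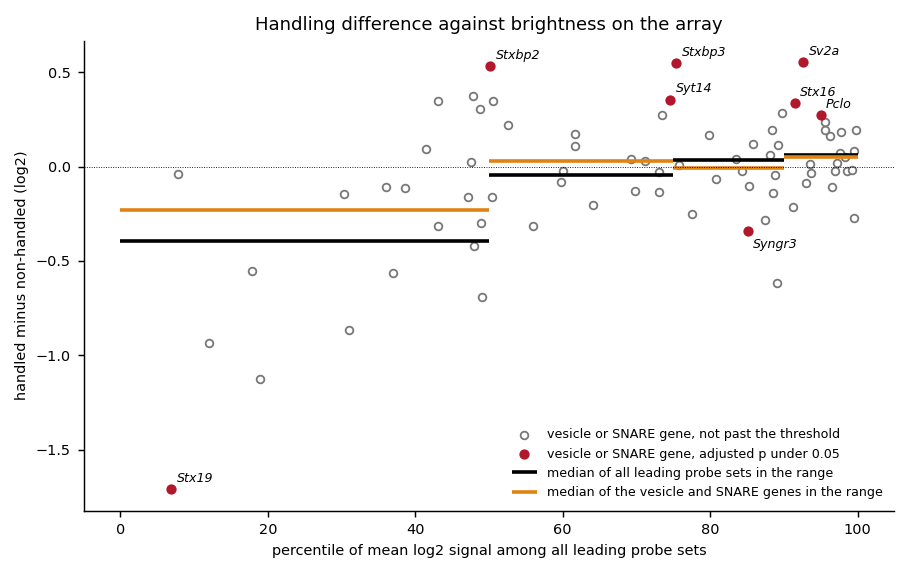
Handling difference (log2, handled minus non-handled) of the 76 genes against the percentile of their mean log2 signal among all leading probe sets, with medians over 4 percentile ranges. Black lines (all leading probe sets) climb from -0.39 to 0.06 and orange lines (vesicle and SNARE genes) from -0.23 to 0.05.

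Within column mice the handling test passed for more of the genes than over all mice. There 11 were higher and 2 lower (5.45% and 9.4% of all leading probe sets), with 6 of the 8 genes above among them. The 7 others were Rims1 (0.29), Rims3 (0.57), Stxbp4 (0.51), Stxbp6 (0.48), Syt16 (0.47), Cplx1 (-0.34) and Stx8 (-0.41). Within the 8 Trizol mice none passed in limma, as for all leading probe sets (0% higher and 0% lower), and 3 of the 76 had an unadjusted p under 0.05 (3.95%, against 7.83% of all). The sign was the same in both methods for 43 of 76 genes.

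No gene passed a test of whether the handling difference itself differed between methods. The interaction of handling and extraction passed for 0 of the 76 genes in limma (0.077% of all leading probe sets in either direction), and 9 had an unadjusted p under 0.05 (11.8%, against 7.87% of all). The smallest were Syt12 (p = 0.0014, adjusted p = 0.33 in limma), Stxbp6 (p = 0.0022, adjusted p = 0.388 in limma) and Sv2a (p = 0.0072, adjusted p = 0.525 in limma). Stxbp6 (amisyn), a SNARE mimic that slows fusion, differed with handling by 0.48 within columns and by -0.14 within Trizol. Syt12, a synaptotagmin of vesicles that lacks calcium binding, differed by -0.12 within columns and by -1.86 within Trizol. Its 4 handled Trizol mice were at 4.21, 4.94, 6.47 and 6.80 and the non-handled ones at 6.46, 7.60, 7.70 and 8.09, which overlap by a single value.

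More of these genes passed for extraction method than for handling. The authors switched from Trizol to columns within this experiment and hybridized all arrays together. Extraction method therefore cannot be told apart from anything else that changed with the switch. Vesicle SNAREs and complexins were mostly brighter with columns, and several syntaxins, syntaxin-binding proteins and Munc13 genes were brighter with Trizol. Of the 76 genes 28 were higher with columns, 18 were lower and 30 did not pass. The shares were 36.8% and 23.7%, against 23.7% and 17.5% of all leading probe sets. Passing also went with brightness. Below percentile 50, 40% of these genes passed in either direction, against 16.6% of all. From percentile 50 to 75 it was 64.7% against 59.0%, and from 75 to 90 it was 83.3% against 72.7%. From 90 to 100 it was 57.1% against 72.4%. The part of brightness in the extraction shares was not tested. The median difference was 0.07 over the 76 genes and -0.02 over all.

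A sign of RNA integrity moved with extraction. The log2 ratio of the 3' to the 5' control probe set of Gapdh was 1.04 to 1.71 (median 1.24) in column mice. In Trizol mice it was 1.49 to 1.95 (median 1.71). That of Actb was 1.54 to 3.24 in column and 1.62 to 2.12 in Trizol mice. Among column mice NH162 had the highest value of both ratios. With both ratios as covariates 17 genes were higher and 13 lower with columns (15.8% and 10.8% of all), and all 30 were among the 46 above. Vamp2 (1.22), Stx1a (1.04), Stx3 (-3.10) and Unc13b (-2.22) still passed, and Bsn (0.86, adjusted p = 0.202 in limma), Nsf (0.27, adjusted p = 0.177 in limma) and Unc13a (-0.30, adjusted p = 0.436 in limma) did not.

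By role, 5 of 7 vesicle SNAREs were higher and 0 lower, with a median of 0.93. Among complexins and Nsf 4 of 5 were higher and 1 was lower, and among 19 synaptotagmins and Doc2 genes 9 were higher and 2 lower. Of 8 vesicle membrane proteins 3 were higher (Syp 0.45, Syngr1 0.69 and Syngr3 0.41) and Sv2b was lower (-0.44). Of 14 syntaxins 4 were higher and 6 lower, of 10 priming and active zone genes 2 were higher and 4 lower, and of 5 syntaxin-binding proteins 0 were higher and 3 lower. None of the 4 SNAP family genes passed (0 also at an unadjusted p under 0.05 in limma), although with quantile normalization 1 was higher and 2 were lower. A second probe set of Snap25 was higher with columns. The synapsin and clathrin assembly genes gave 1 higher (Syn1, 0.73) and 1 lower (Syn3, -0.40).

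Among the SNARE partners themselves the extraction differences went apart. Vamp2, the vesicle SNARE of synapses, ran from 12.16 to 12.74 (median 12.41) in 17 column mice and from 10.66 to 11.83 (median 11.20) in 8 Trizol mice. Stx1a, its partner on the target membrane, ran from 11.48 to 12.66 (median 11.93) and from 10.51 to 11.33 (median 10.90). Neither gene had any overlap between methods. The differences were 1.24 (SE 0.10, adjusted p = 4.86e-12 in limma) and 1.02 (SE 0.11, adjusted p = 1.66e-09 in limma), folds of 2.36 and 2.03. Snap25, the third partner, ran from 14.15 to 14.89 with columns and from 14.62 to 14.92 with Trizol and differed by -0.13 (SE 0.08, adjusted p = 0.211 in limma).

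Cplx2 was higher with columns by 1.00 (SE 0.11), Cplx1 by 0.52 (SE 0.10) and Nsf by 0.28 (SE 0.09, adjusted p = 0.0179 in limma), and Unc13a was lower by 0.41 (SE 0.15, adjusted p = 0.0259 in limma). Syt5, a synaptotagmin of dense-core and synaptic vesicles, was higher by 0.98 (SE 0.09). It ran from 9.63 to 10.24 with columns and from 8.54 to 9.37 with Trizol, without overlap. Vamp8, a SNARE of endosomes and secretory granules, was higher by 1.03 (SE 0.15), and Bsn by 1.11 (SE 0.26), both with overlap. Syt1 differed by 0.12 (SE 0.07, adjusted p = 0.172 in limma) and Vamp1 by -0.18 (SE 0.11, adjusted p = 0.185 in limma).

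Among leading probe sets of these genes, the largest extraction difference was that of Stx3, a syntaxin of apical membranes and ribbon synapses. Its log2 signal ran from 7.20 to 8.52 (median 7.86) with columns and from 10.23 to 11.19 (median 10.67) with Trizol. Unc13b (Munc13-2), a priming factor, ran from 7.32 to 8.70 (median 7.79) and from 9.85 to 10.31 (median 9.97). Both stood well apart between methods, with a gap between the groups wider than the range of the Trizol mice for each gene. The differences were -2.86 (SE 0.14, adjusted p = 1.48e-17 in limma) and -2.11 (SE 0.14, adjusted p = 1.71e-14 in limma), folds of 7.24 and 4.31 in favor of Trizol. They were as large within handled mice (-2.93 and -2.16) as within non-handled mice (-2.79 and -2.06).

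Further genes lower with columns were Stxbp2 (-1.72, SE 0.18), Syt14 (-1.23, SE 0.11), Stxbp5 (-1.04, SE 0.09) and Pclo (-0.71, SE 0.07), each without overlap between methods. Stxbp5 encodes tomosyn, which occupies syntaxin in place of VAMP2. Syt7, a slow calcium sensor, was lower by 0.85 (SE 0.12), with 10.58 to 11.47 against 11.32 to 12.29. In all, 12 of the 76 genes (15.8%) had no overlap between column and Trizol mice, 6 in each direction, against 9.93% of all leading probe sets. Below the upper 50% of leading probe sets, larger rises than that of Vamp2 were found for Vamp5 (1.65), Syt12 (1.60), Cplx3 (1.39), Doc2a (1.26) and Rims4 (1.25), and Cplx4 fell by 1.44.

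With quantile normalization the median extraction difference over all leading probe sets moved from -0.02 to 0.26, and that over the 76 genes from 0.07 to 0.21. The counts became 29 higher and 22 lower (31.6% and 14% of all). Syt1 turned to -0.18 (adjusted p = 0.0273 in limma) and Snap25 moved to -0.39 and passed, while Vamp2 (1.13), Stx1a (0.94), Stx3 (-2.76) and Unc13b (-1.98) kept their direction.

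**Figure D4:**
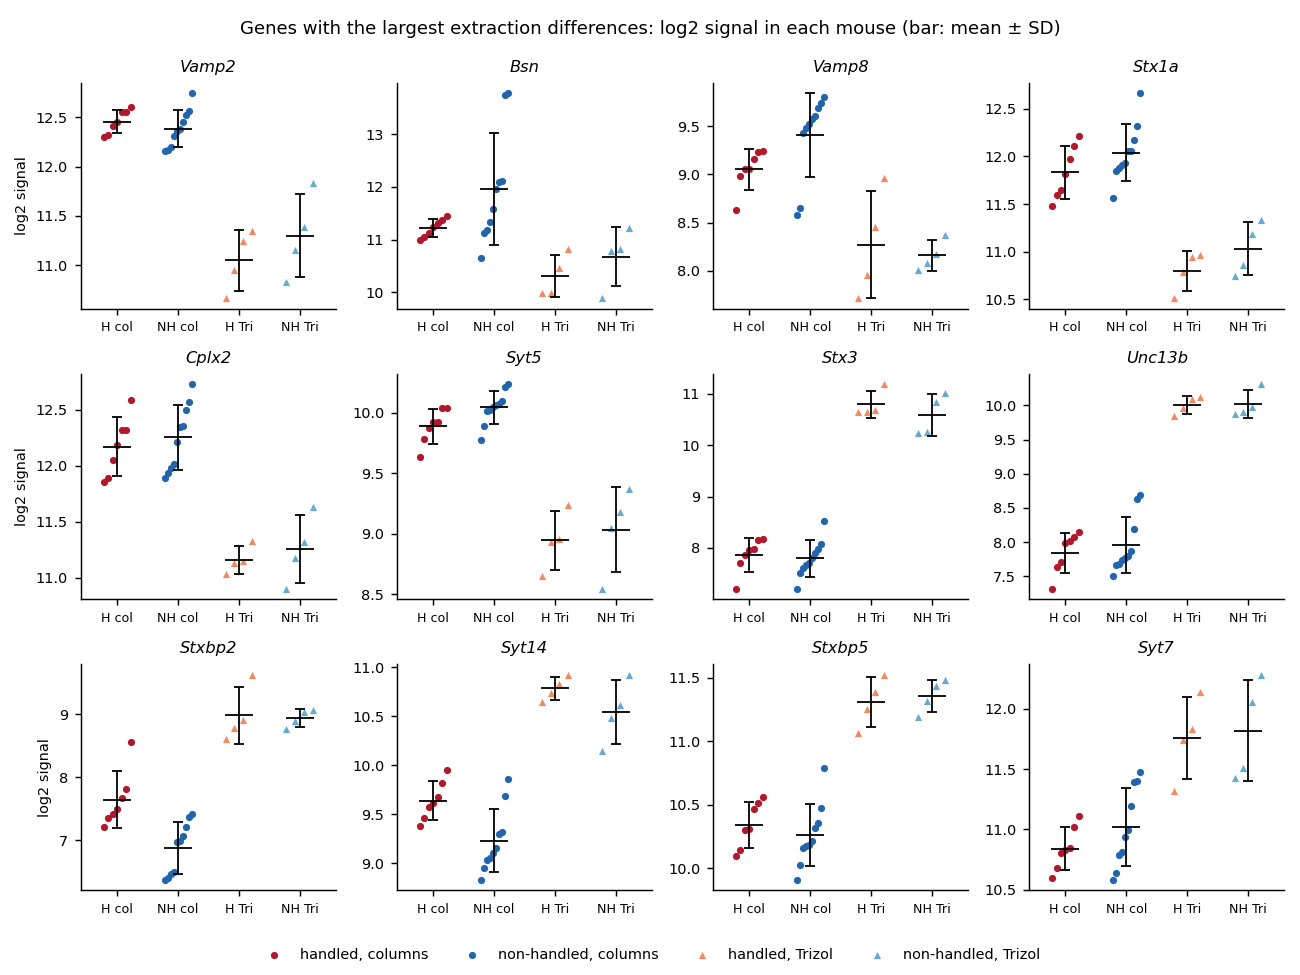
Log2 signal of the 6 genes with the largest rise and the 6 with the largest fall with columns among members in the upper 50% of leading probe sets, 1 point per mouse, in handled (H) and non-handled (NH) mice with RNA from columns (col) or Trizol (Tri); bars are mean ± SD. Column and Trizol mice are separate for Vamp2, Stx1a, Cplx2, Syt5, Stx3, Unc13b, Stxbp2, Syt14 and Stxbp5, and overlap for Bsn, Vamp8 and Syt7.

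Markers of other cell types differed between methods as well. Over all leading probe sets, 23.7% were higher and 17.5% lower with columns. With columns 6 of 7 microglia markers, 6 of 7 astrocyte markers, 5 of 6 oligodendrocyte markers and all 5 CA1 pyramidal markers were higher and 0 were lower. Of neuron markers 3 of 5 were higher and 1 lower, of interneuron markers 4 of 7 higher, of CA3 markers 1 of 5 higher and 2 lower, of dentate gyrus markers 0 of 5 higher and 1 lower, of endothelial markers 1 of 5 higher and of choroid plexus markers 0 of 5 in either direction. The summed log2 signal of the microglia markers was 14.05 to 14.84 with columns and 12.97 to 13.53 with Trizol, and that of the astrocyte markers 15.79 to 16.43 and 15.29 to 15.65. The sums of these 2 lists did not overlap between methods, and no marker was at 0. Their part in the extraction differences was not tested. Over all leading probe sets, 4.47% were higher and 9.7% lower in handled mice. For handling, 1 of 7 microglia, 1 of 7 astrocyte and 0 of 6 oligodendrocyte markers were higher and none of these was lower, while 2 of 5 endothelial and 2 of 5 choroid plexus markers were lower and 2 of 7 interneuron markers were higher and 1 lower. The part of these in the handling differences was not tested either.

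Different probe sets of 1 gene did not always give the same answer. For the 28 genes higher with columns, 24 further probe sets with a mean signal in the upper 50% of all those tested (15 genes) gave the same sign in 19, passed the same way in 13 and the opposite way in 3. For the 18 genes lower with columns, 14 of 19 had the same sign, 8 passed the same way and 0 the opposite way. For the 6 genes higher in handled mice, 3 of 5 further probe sets had the same sign and 0 passed in limma, and for the 2 lower genes 0 of 1 had the same sign.

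Syt1 and Nsf had probe sets far apart. The leading probe set of Syt1 differed with extraction by 0.12, and a dimmer one by -2.98 (SE 0.19), with log2 signals of 6.29 to 8.75 in column and 9.68 to 10.93 in Trizol mice. For Nsf the leading probe set differed by 0.28 and another by -3.12 (SE 0.30), with 4.06 to 7.21 against 8.52 to 9.84. Both dim probe sets thus separated the methods completely while the bright ones of the same genes overlapped. Cplx2 gave 1.00, 1.54 and 0.96 on its 3 probe sets and Stxbp2 -1.72, -1.72 and -1.42.

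Vamp3, a SNARE of recycling endosomes, had 5 probe sets, and for handling 2 of them were higher (0.30 and 0.67) and 1 lower (-0.32) at adjusted p of 0.0188, 0.0140 and 0.0322 in limma. Its leading probe set gave -0.11 (adjusted p = 0.51 in limma). Vamp7 (0.34), Rims2 (0.38) and Syt11 (0.46) were higher in handled mice on a further probe set and did not pass on the leading one. Whether such probe sets report different transcripts was not tested.

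**Figure D5:**
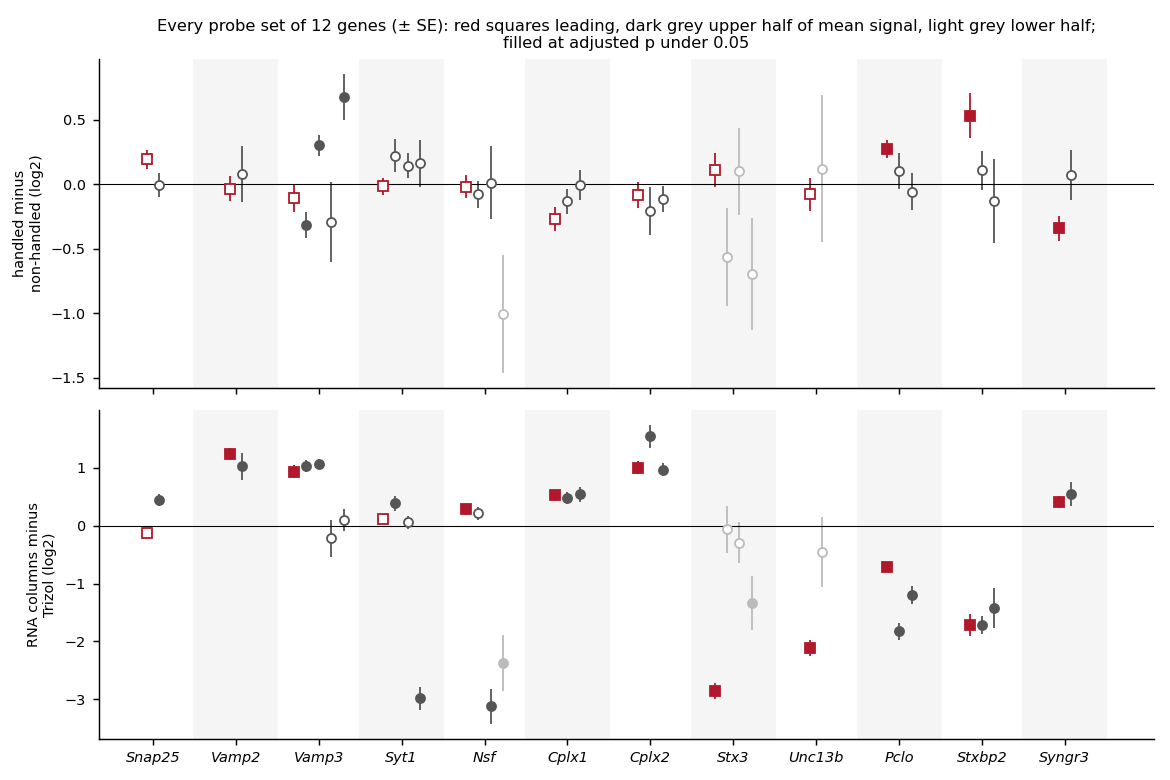
Log2 differences ± SE of every probe set of 12 genes for handling (top) and RNA extraction (bottom); squares are leading probe sets and filled symbols passed the test. For extraction the probe sets of Vamp2, Cplx1, Cplx2, Pclo and Stxbp2 lie on 1 side of 0, and those of Syt1 and Nsf reach from 0.38 to -2.98 and from 0.28 to -3.12.

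The genes brighter with Trizol were longer. In RefSeq (GRCm38.p6), the median span from start to end was 40.3 kb for the 76 genes and 29.9 kb for the 28 higher with columns, but 63.0 kb for the 18 lower with columns. Vamp2 spans 3.85 kb on chromosome 11, and Unc13b spans 219 kb on chromosome 4. Over all leading probe sets the medians were 16.3 kb for those higher and 41.3 kb for those lower with columns. Across genes, Spearman's rho of span with the extraction difference was -0.25 over the 76 genes and -0.15 over 18145 leading probe sets. With the handling difference it was 0.31 and 0.26. Genes share arrays and are not independent replicates, and no p is given.

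Other genes of the vesicle cycle were counted from lists and read against 4.47% higher and 9.7% lower over all leading probe sets. Of 14 vesicle filling and proton pump genes 1 was higher in handled mice (Atp6v1a, a subunit of the proton pump, 0.29, adjusted p = 0.0111 in limma) and 0 were lower. Of 25 endocytosis genes 1 was higher (Itsn2, 0.29) and 2 were lower (Amph, amphiphysin, -0.31, and Epn1, epsin, -0.42). Of 19 SNARE adaptors and other SNAREs 1 was higher and 0 lower. That one was Napb (beta-SNAP, which recruits NSF), at 13.13 to 13.69 in handled and 12.69 to 13.25 in non-handled mice, a difference of 0.50 (SE 0.07, adjusted p = 3.48e-05 in limma). The ranges overlapped slightly.

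Of 29 active zone partners and Rab3 genes 5 were higher and 3 lower. Rab3a, the vesicle GTPase that binds Rims1, ran from 11.98 to 13.04 in handled and from 12.88 to 14.49 in non-handled mice. Only the edges of the groups overlapped, and the difference was -1.21 (SE 0.14, adjusted p = 4.83e-07 in limma). Its second probe set, with a mean log2 signal of 11.89, gave -0.17 (adjusted p = 0.228 in limma). The calcium channel subunit Cacnb4 (0.35) was higher and the liprin Ppfia3 was lower (-0.39).

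For extraction, the vesicle filling list had 7 of 14 genes higher with columns and 0 lower, the adaptors 9 of 19 higher and 1 lower, and endocytosis 11 of 25 higher and 5 lower. The active zone partners went the other way, with 6 of 29 higher and 11 lower. Examples were the liprin Ppfia2 (-1.20), the scaffold Erc2 (-0.60) and Rab3c (-0.74), against clathrin light chain Cltb (1.13), alpha-SNAP (Napa, 0.84) and the pump subunit Atp6v0d1 (0.89). Medians were 0.40, 0.11, 0.10 and -0.11 in that order, against -0.02 over all leading probe sets.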

How the data were processed

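CA1 RNA of 25 mice was measured on 1 array each. The authors deposited MAS 5.0 signal per probe set, a linear intensity with no quantile normalization and no detection calls. Extraction method was read from label text that names positions in the sample list, and the group sizes equal those of the series' design. Probe sets were named from the platform annotation, with symbols updated through RefSeq (34754 matched). Of 45101 probe sets, 64 controls were left out, 34958 had 1 gene, 932 several and 9211 none. Log2 signal was fitted in limma 3.58.1 (R 4.3.3) with handling and extraction as terms and a trended prior, and p-values were Benjamini-Hochberg adjusted over 45037 probe sets (threshold 0.05). A second model added the interaction. Scripts were tested on simulated data. Summaries used Python 3.11.15, pandas 2.3.3, numpy 2.4.6 and matplotlib 3.10.9.

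Members and lists were chosen with earlier results of these data known. Full values were given for members that passed for handling, for up to 6 members per direction with the largest extraction difference in the upper 50% of leading probe sets by mean signal, for the 10 brightest and for the core fusion genes. Other lists were represented by up to 3 genes each with the smallest p. The settings varied were quantile normalization, scaling of every array to 1 mean and 1 variance, an added offset of 32 signal units, a filter to the upper 50%, a constant prior variance, array weights, 3' to 5' ratios as covariates, gene means, single methods or handling groups, and each mouse left out.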

Additional observations from a re-analysis of the deposited data

Results flagged for a closer look

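Of 120 groups of mice (30 genes), 7 held a mouse far from the rest by Dixon's test. At the cut-offs used some are found by chance alone, and their number was not tested against it. The groups share mice, and all 7 were H109, H130 or NH162. Among handled column mice, H109 was highest for Stx16 at 12.07 (others 11.55 to 11.74) and lowest for Vamp8 at 8.63 (others 8.98 to 9.25). Among handled Trizol mice, H130 was highest for Stx3 at 11.19 (others 10.64 to 10.69), and lowest for Syngr3 at 9.86 (others 10.46 to 10.50) and for Vamp1 at 9.20 (others 9.57 to 9.62). Among non-handled column mice, NH162 was lowest for Stx7 at 12.40 (others 13.04 to 13.23) and for Syngr3 at 10.67 (others 10.95 to 11.26). Without H109 Stx16 did not pass for handling (adjusted p = 0.0608 in limma), and Syngr3 passed whichever mouse was left out.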

How the results depend on the processing

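Handling counts moved most. Genes higher in handled mice numbered 6, but 2 with a constant prior variance and 1 with no extraction term. They numbered 11 in column mice alone, 0 in Trizol mice alone and 12 of 176 over all probe sets. Shares higher over all leading probe sets were 4.47%, 2.5%, 1.08%, 5.45% and 0% in that order. Of all 45037 probe sets 1614 were higher. With 1 mouse left out, genes higher numbered 3 (without H109, against 484 of 18193 leading probe sets) to 8. Genes lower numbered 2, but 1 with quantile normalization or an offset, and 0 with a constant prior variance, no extraction term or Trizol mice alone. They numbered 4 with array weights, 5 with gene means and 7 over all probe sets. With 1 mouse left out, genes lower numbered 1 to 4 (4 without H126). Among 18193 leading probe sets 1764 were lower, and 923 with quantile normalization, 1743 with an offset and 1520 with a constant prior variance. There were 922 with no extraction term, 0 in Trizol mice alone, 1976 with array weights and 1961 without H126. Gene means gave 1887 of 18193 lower, and all probe sets 3571 of 45037. With the filter to the upper 50% Snap25, Cplx1 and Rims1 newly passed and Stx19 was not tested. With gene means Vamp1, Bsn, Doc2b, Stx11 and Unc13c newly passed for handling, and Pclo, Stxbp2 and Syngr3 no longer passed. With columns 28 genes were higher and 18 lower, but 17 were higher with the 3' to 5' covariates or in non-handled mice alone. Over all probe sets of these genes 51 were higher and 37 lower with columns. Of 18193 leading probe sets 4316 were higher with columns, 2869 with the covariates and 3377 in non-handled mice alone. Of all 45037 probe sets 7430 were higher and 10500 lower. Small handling differences turned sign. In Trizol mice alone Nsf was 0.0198, Sv2a -0.0166 and Syt1 0.0784, and in column mice alone Unc13a was 0.0718 and Vamp2 0.0708. With quantile normalization Syt1 was 0.0014 and Unc13a 0.0185, with scaled arrays Snap25 was -0.119 and Unc13a 0.0951, with gene means Syt1 was 0.127 and Vamp2 0.0215, and with no extraction term Unc13a was 0.0082. With 1 mouse left out Nsf ran from -0.0618 to 0.0243, Unc13a from -0.0794 to 0.0614 and Vamp2 from -0.0699 to 0.0284. For extraction, gene means gave Nsf -1.25, Snap25 0.157 and Syt1 -0.607, and Syt1 was -0.179 with quantile normalization and -0.0195 with scaled arrays. Gene means include dim probe sets. Comparisons within a single method rest on fewer mice, although their spread was estimated in a fit on all mice. The cause of the other changes was not tested. Among the remaining named values for handling, 133 kept direction and side of the threshold, 34 no longer passed and 7 newly passed, and with 1 mouse left out 379 kept both. No paired analysis was possible because the groups share no replicate numbers. A probe set near the array's background, such as that of Stx19, gives an uncertain difference, and no detection call was at hand.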
